A study of Homo sapiens with 4 samples.

Results

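The 88 genes described here encode the nuclear subunits and assembly factors of the mitochondrial oxidative phosphorylation system. They were chosen by symbol alone from the 10147 genes listed in a TT-seq comparison of K562 cells with and without IWS1. The symbols taken were *NDUF*, *SDH*, *UQCR*, *ATP5* and numbered *COX* genes, *CYC1* and *CYCS*, and 2 hyphenated names were left out. *NDUFAB1* and *COX20* fell outside these patterns and were placed among the further assembly factors and subunits. By role, they were 33 subunits of complex I (NADH dehydrogenase), 4 of complex II (succinate dehydrogenase), 9 of complex III (cytochrome bc1), 10 of complex IV (cytochrome c oxidase), 12 of complex V (ATP synthase), cytochrome c itself and 19 assembly and related factors. *NDUFA4*, which keeps its complex I name, was placed in complex IV.

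Oxidative phosphorylation passes electrons from NADH and succinate through complexes I to IV to oxygen, and the proton gradient that results drives ATP synthesis by complex V. The large complexes are built from proteins of both the mitochondrial and the nuclear genome, whereas complex II is encoded by nuclear genes only. RNA polymerase II transcribes the nuclear genes, and the factors NRF1, GABP (of the ETS family), YY1 and Sp1 are known to act at many of their promoters. IWS1 is an elongation factor that travels with RNA polymerase II. The transcripts of mitochondrial DNA, which has its own polymerase, were not analysed here.

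K562 is a human chronic myelogenous leukemia line. In all samples the cells were genome edited and carried IWS1 with an N-terminal dTAG, a degradation tag that the dTAG7 ligand uses to remove the protein, so the controls carry the tag too. The control group (2 libraries in the labels) received DMSO solvent and the dIWS1 group (2 libraries) received 500 nM dTAG7, both for 1 h before a 5 min pulse of 500 µM 4-thiouridine that marks new RNA. The sources used here do not say whether the edited line is 1 clone.

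Reads per library column were recovered from the mean normalized count that the authors deposited for each gene. This gave 1 control column with the weight of 2 equal library columns and 2 different dIWS1 columns. The control was counted as 1 sample, so no spread between controls enters any test. Which dIWS1 replicate is which cannot be read from the values, so they are named column 1 (19634717 reads in genes) and column 2 (19860756). Depth was greatest in the control, at 28227479 reads in genes. A normalized count is the reads of a gene divided by a size factor from spike-in RNAs (1.01 for the control, 0.993 for column 1 and 0.919 for column 2). All 11 erythroid markers listed for K562 cells were among the tested genes. Of 9 markers of other cell types 3 were tested (*PTPRC*, *KRT8* and *KRT18*). Normalized counts of the tagged gene *IWS1* were 3649 in the control, 2350 in column 1 and 2640 in column 2. This does not measure the depletion, which acts on the protein.

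Synthesis of the oxidative phosphorylation genes was lower after depletion of IWS1 in every complex. All 88 genes had a log2 fold change (dIWS1/control) below 0, and 86 lay below the control in both columns. The members together had 72.6% of the control's normalized count in column 1 and 79.9% in column 2. The median log2 fold change of the 88 genes was −0.44 (quartiles −0.53 and −0.31), or 73.5% of the control. Taken singly, column 1 gave a median of −0.50 and column 2 one of −0.37. The fold changes ran from −1.03 to −0.09.

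By limma (voom weights, Benjamini-Hochberg over all 9890 genes whose mean reached 10 normalized counts, called at an adjusted p under 0.05) 68 of the 88 genes fell and 0 rose (0 also at an unadjusted p under 0.05 and by limma-trend). All 88 passed the filter on low means. Among all genes tested 65.4% fell and 0.101% rose, and their median was −0.42 (quartiles −0.59 and −0.26). The share of members that fell was 77.3%, and their median relative to that of all genes was −0.02. Most genes fell likewise, and the fall rests on the spike-in scaling. With the columns scaled by their total reads in genes instead, which moves the median of the members to −0.01, 9 members were lower and 15 were higher. Of the 9890 genes tested, 1471 were lower and 1878 higher under that scaling. As a share of all reads in genes, which no scaling changes, the members took 0.456% in the control (exact 95% binomial interval 0.453 to 0.458), 0.468% in column 1 (0.465 to 0.471) and 0.472% in column 2 (0.469 to 0.475). Such intervals cover counting error only.

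**Figure D1:**
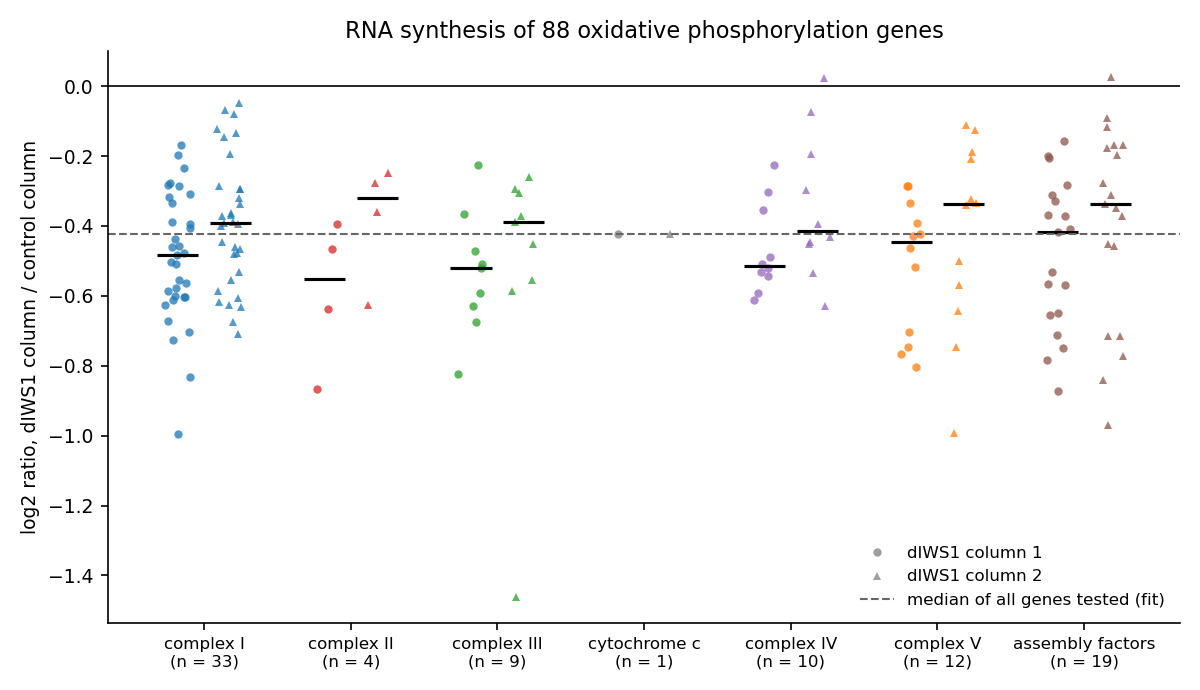
Log2 ratio of the normalized count in each dIWS1 column (circles column 1, triangles column 2) to that in the control column, for each of the 88 genes by complex. Black bars are medians over the genes of a complex and the dashed line is the median log2 fold change of all genes tested, −0.42. All medians lie below 0, the median of column 2 lies above that of column 1 in complexes I to V and the assembly factors, and 2 genes (*COX5A* and *NDUFAF7*) lie just above 0 in column 2.

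The complexes differed little from each other. The median log2 fold change was −0.45 for complex I, −0.43 for complex II, −0.49 for complex III, −0.47 for complex IV, −0.39 for complex V and −0.41 for the assembly factors. All of them lay between the medians of column 1 (−0.50) and column 2 (−0.37) over all members. Of the genes in each group, 25 of 33 fell in complex I, 4 of 4 in complex II, 8 of 9 in complex III, 8 of 10 in complex IV, 9 of 12 in complex V and 13 of 19 among the assembly factors. By limma-trend these counts were 24, 2, 5, 8, 8 and 10. Those of complexes II and III and of the assembly factors thus changed most with the variant of the test. Over all genes tested, 6470 fell with voom weights and 5432 by limma-trend. The complexes also kept their shares of the reads of the 88 genes. Complex I took 30.8% of them in the control, 30.9% in column 1 and 30.9% in column 2. Complex V took 13.0%, 13.3% and 13.2%, and complex IV took 9.93%, 9.93% and 10.2%. Complex II was lower, with 8.57% in the control (interval 8.41 to 8.72), 7.78% in column 1 (7.61 to 7.96) and 8.22% in column 2 (8.05 to 8.40). No test was made between complexes, whose genes are not replicates.

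A second comparison placed each gene against the median gene, by subtracting the median of all genes from the same limma fit. Against it 3 members were lower, where 4.88% of all genes were, and 0 were higher, where 2.95% were. At an unadjusted p under 0.05 these counts were 10 and 6, and by limma-trend 1 and 0. The shares of all genes at these settings are not given here, so these counts do not compare the members with other genes. The 3 genes were *NDUFS7*, *COX18* and *ATP5G1*. Of the 88 genes 50 lay below the median gene and 38 above it. The standard error of a member in this fit (median 0.14) includes a difference in general level between the dIWS1 columns. Column 1 lay below column 2 in 69 of the 88 genes, with a median log2 ratio of column 1 to column 2 of −0.10. Whether this difference comes from the scaling or from synthesis was not tested. In a fit added after the data were seen, each column was centred on its own median gene, which removes that difference and gives a median standard error of 0.09. It called 11 members lower and 12 higher than the median gene, beside 15.2% and 16.1% of all genes. The 11 were *NDUFAF3*, *COX18*, *COX7A2L*, *COX15*, *NDUFS7*, *NDUFB3*, *NDUFV1*, *SDHC*, *ATP5G1*, *ATP5D* and *ATP5G2*. The 12 were *COX11*, *SDHAF3*, *NDUFAF7*, *NDUFA5*, *NDUFV2*, *NDUFB9*, *NDUFA12*, *NDUFB2*, *NDUFA4*, *COX5A*, *ATP5C1* and *ATP5F1*. *COX7A2L* (−0.33, adjusted p = 0.000607) and *SDHC* (−0.32, adjusted p = 0.000777, both limma) had the smallest adjusted p.

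Complex I, which takes electrons from NADH, had its largest fall in *NDUFS7* (chr19:1383907-1395584, GRCh38), a catalytic core subunit that holds an iron-sulfur cluster. Its normalized counts were 596 in the control, 299 in column 1 and 364 in column 2. Both dIWS1 columns were far below the control. The log2 fold change was −0.85 (SE 0.13, adjusted p = 3.92e-09, limma), and it stood at −0.43 against the median gene (adjusted p = 0.0206).

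*NDUFB3*, an accessory subunit of the membrane arm, had 447 normalized counts in the control, 251 in column 1 and 279.5 in column 2. Its fold change was −0.76 (SE 0.14, adjusted p = 4.23e-07, limma). *NDUFV1*, the core subunit that binds NADH and flavin, had 1020, 640 and 658. Its fold change was −0.65 (SE 0.13, adjusted p = 8.62e-06, limma), and it had the highest level of complex I per kb of gene span, though not per kb of exon. Both genes were lower than the median gene in the fit with centred columns only, at −0.33 (adjusted p = 0.0326) and −0.23 (adjusted p = 0.0424).

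At the other end of complex I stood *NDUFB2* and *NDUFA12*, both accessory subunits. *NDUFB2* had 742 normalized counts in the control, 660 in column 1 and 708 in column 2, a fold change of −0.12 (95% interval −0.37 to 0.14). *NDUFA12* had 1869, 1536 and 1809, a fold change of −0.16 (−0.45 to 0.12). Neither was called. In the fit with centred columns both were higher than the median gene, by 0.31 (adjusted p = 0.00985, limma) and 0.26 (adjusted p = 0.00844). *NDUFS4*, at 122.7 kb the longest subunit gene, fell by 0.50 on the log2 scale (adjusted p = 0.00254, limma). The 7 *NDUFS* genes all fell, with a median of −0.45, and so did 8 of 11 *NDUFB* genes (median −0.47), 7 of 11 *NDUFA* genes (median −0.42), 2 of 3 *NDUFV* genes and *NDUFC1*. The columns were far apart in *NDUFB1*, with a log2 ratio of −0.28 in column 1 and −0.61 in column 2.

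Complex II links the tricarboxylic acid cycle to the respiratory chain. Its 4 genes all fell, but by unequal amounts, and by limma-trend *SDHA* (adjusted p = 0.0873) and *SDHD* (adjusted p = 0.0685) were not called. *SDHC*, a membrane anchor, had 3444 normalized counts in the control, 1887 in column 1 and 2230 in column 2. The fold change was −0.75 (SE 0.15, adjusted p = 6.03e-06, limma). *SDHB*, the iron-sulfur subunit, had 1949, 1253 and 1518 normalized counts, a fold change of −0.50 (adjusted p = 0.00154, limma). The catalytic subunit *SDHA* (4064, 2944 and 3423 normalized counts) was at −0.36 and the other anchor *SDHD* (1462, 1113 and 1206) at −0.34. In each of the 4 genes both dIWS1 columns lay below the control.

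The unequal fall can be seen within each library, free of any scaling. Of the reads of the 4 genes, *SDHC* took 31.5% in the control (interval 30.7 to 32.4), 26.2% in column 1 (25.2 to 27.3) and 26.6% in column 2 (25.6 to 27.6). *SDHA* took 37.2% in the control (36.3 to 38.1), 40.9% in column 1 (39.8 to 42.1) and 40.9% in column 2 (39.8 to 42.0). The share of *SDHC* was lower and that of *SDHA* higher in both dIWS1 columns, with intervals that do not overlap those of the control. With 1 control column, no spread between controls stands behind this.

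**Figure D2:**
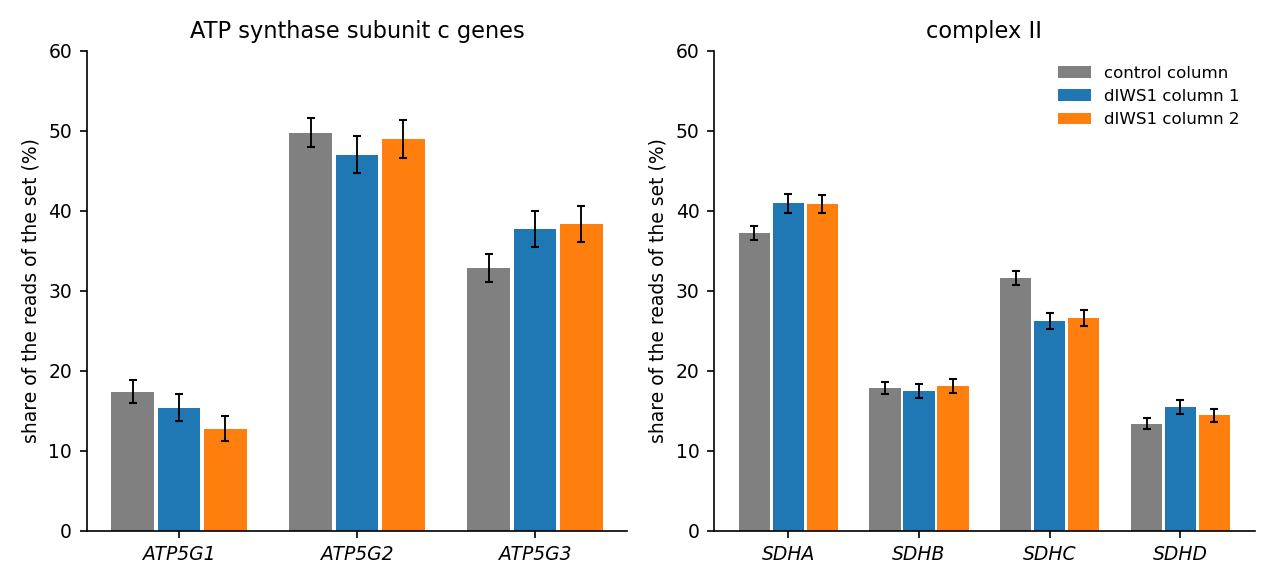
Share of the reads of a set of genes that each gene took in the control column and in the 2 dIWS1 columns, for the 3 genes of ATP synthase subunit c (left) and the 4 genes of complex II (right). Error bars are exact 95% binomial intervals, which cover counting error only. *SDHC* takes 31.5% in the control and 26.2% and 26.6% in the dIWS1 columns, and *ATP5G3* rises from 32.9% to 37.7% and 38.3%.

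In complex III, which passes electrons from ubiquinol to cytochrome c, 8 of 9 genes fell, and 5 of 9 by limma-trend, where *UQCRFS1* (adjusted p = 0.0867) and *UQCRHL* (adjusted p = 0.263) were among those not called. The small subunit gene *UQCR10* had 305 normalized counts in the control, 172 in column 1 and 223 in column 2, a fold change of −0.64 (adjusted p = 6.18e-05, limma). *CYC1*, cytochrome c1, had 420.0, 263 and 279.5, a fold change of −0.63 (adjusted p = 2.28e-05, limma). *UQCRFS1*, the Rieske iron-sulfur protein, was at −0.31 and *UQCRB* at −0.26, the latter not called (adjusted p = 0.0649, limma). The lowest value of all members was that of *UQCRHL*, at −1.03 (SE 0.41), from 16 reads in the control, 10 in column 1 and 5 in column 2. *UQCRHL* is a near-identical copy of *UQCRH* without introns, and only unique alignments were counted, so the values of both are uncertain. *UQCRH* was at −0.39. Cytochrome c, which carries electrons from complex III to complex IV, is encoded by *CYCS*. It had 1869, 1394 and 1393 normalized counts and a fold change of −0.42, the value of the median gene.

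In complex IV, where oxygen is reduced, the members are the nuclear subunits around a mitochondrially encoded core. *COX6A1* had 600 normalized counts in the control, 398 in column 1 and 388 in column 2, a fold change of −0.61 (adjusted p = 2.1e-05, limma). *COX8A* had 720, 505 and 497 (−0.52, adjusted p = 0.000248), *COX6B1* 1518, 994 and 1154 (−0.50, adjusted p = 0.001) and *COX4I1*, the largest nuclear subunit, 1760, 1217 and 1305 (−0.48, adjusted p = 0.00197, all limma). In these 4 genes both dIWS1 columns were below the control. *COX5A* had 2141 normalized counts in the control, 1737 in column 1 and 2174 in column 2. One dIWS1 column was below the control and the other at its level, and the fold change of −0.14 (95% interval −0.43 to 0.15) was not called. Its partner subunit *COX5B* (591, 462 and 481) was at −0.33 and fell (adjusted p = 0.0201, limma). *NDUFA4* (1032, 882 and 981) was at −0.15 and not called. The paralogs *COX4I2*, *COX6A2*, *COX6B2*, *COX7A1* and *COX8C*, most of them known from muscle, lung or testis, were not analysed here.

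Complex V makes ATP. The ring that turns in the membrane is built of subunit c, and 3 nuclear genes encode the same mature protein. *ATP5G1* (now *ATP5MC1*, chr17:48892787-48895871) had 494 normalized counts in the control, 283 in column 1 and 248 in column 2. *ATP5G2* had 1416, 869 and 954, and *ATP5G3* had 935, 698 and 747. All 3 were below the control in both columns. The fold changes were −0.90 for *ATP5G1* (SE 0.13, adjusted p = 1.36e-09, limma), −0.64 for *ATP5G2* (adjusted p = 2.74e-05) and −0.37 for *ATP5G3* (adjusted p = 0.0098). *ATP5G1* was the lowest member with at least 100 control reads and stood at −0.47 against the median gene (adjusted p = 0.0115).

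Within each library *ATP5G1* took 17.4% of the reads of the 3 genes in the control (interval 16.0 to 18.8), 15.3% in column 1 (13.7 to 17.0) and 12.7% in column 2 (11.2 to 14.4). *ATP5G3* took 32.9% in the control (31.1 to 34.6), 37.7% in column 1 (35.5 to 40.0) and 38.3% in column 2 (36.1 to 40.6). For *ATP5G3* the intervals of both columns lay above that of the control. For *ATP5G1* only column 2 lay clear of it. *ATP5G2* took 49.8%, 47.0% and 48.9%, with intervals that overlap.

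Among the other ATP synthase genes *ATP5D* and *ATP5H* fell most. *ATP5D*, a subunit of the central stalk, had 389 normalized counts in the control, 229 in column 1 and 232 in column 2 (−0.76, adjusted p = 7.54e-07, limma). *ATP5H*, of the peripheral stalk, had 522, 311 and 334 (−0.70, adjusted p = 1.78e-06, limma). *ATP5C1*, the γ subunit of the rotor, was at −0.22 and *ATP5F1*, the b subunit of the stalk, at −0.20. Neither was called.

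Among the assembly factors the fold changes ran from −0.86 to −0.09. *NDUFAF3*, which acts early in the assembly of complex I, had 246 normalized counts in the control, 146 in column 1 and 125 in column 2, a fold change of −0.86 (SE 0.16, adjusted p = 9.62e-07, limma). *COX18*, which helps insert a core subunit of complex IV into the membrane, had 631, 344 and 352 (chr4:73052362-73069759). Its fold change was also −0.86 (SE 0.13, adjusted p = 3.22e-09, limma), and it stood at −0.43 against the median gene (adjusted p = 0.0194). *COX7A2L*, which joins complexes III and IV in supercomplexes, had 2973, 1726 and 1812 (−0.75, adjusted p = 4.55e-06, limma). For these 3 genes both dIWS1 columns were far below the control.

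The highest values among the assembly factors were those of *NDUFAF7*, a methyltransferase that acts on complex I, and *SDHAF3*, a factor for complex II. *NDUFAF7* had 1124 normalized counts in the control, 976 in column 1 and 1145 in column 2, so the groups overlapped, and its fold change was −0.09 (95% interval −0.35 to 0.18). *SDHAF3* had 3962, 3553 and 3721 and a fold change of −0.12 (−0.42 to 0.17). In the fit with centred columns both were higher than the median gene, by 0.33 (adjusted p = 0.00204, limma) and 0.30 (adjusted p = 0.0011). *NDUFAF2*, at 207.8 kb the longest member, fell by 0.39 on the log2 scale (adjusted p = 0.0149, limma), and *COX10*, a heme synthesis enzyme of 139.2 kb, by 0.44 (adjusted p = 0.00721). *SDHAF1*, at 1.12 kb among the shortest, was at −0.51 from 74, 49 and 49 reads (adjusted p = 0.0465). By limma-trend *NDUFAF2* (adjusted p = 0.0621) and *SDHAF1* (adjusted p = 0.0809) were not called.

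**Figure D3:**
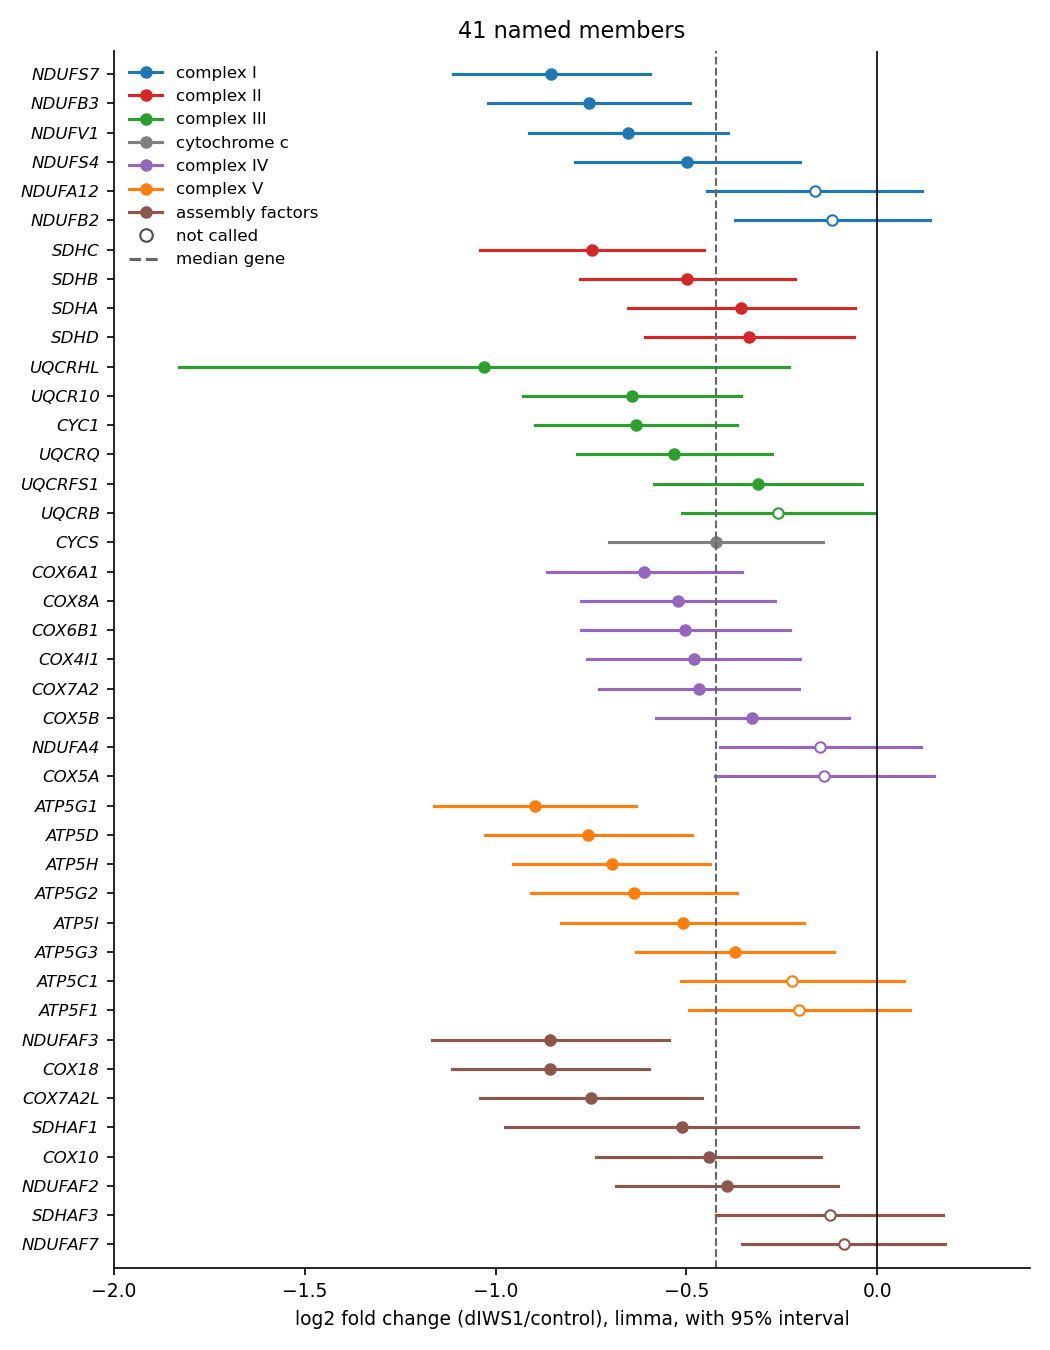
Log2 fold change (dIWS1/control) of 41 members named by a fixed rule, with the 95% interval of the limma fit, by complex. Filled points fell, open points were not called, the solid line is 0 and the dashed line is the median of all genes tested. The intervals of *NDUFS7*, *NDUFB3*, *SDHC*, *ATP5G1*, *ATP5D*, *ATP5H*, *NDUFAF3*, *COX18* and *COX7A2L* lie wholly below the dashed line, which is drawn without an error of its own, and the open points sit between −0.26 and −0.09.

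Levels of synthesis can be compared between genes per length. Per kb of RefSeq gene span, the median normalized count in the control was 172 for complex IV, 153 for complex III, 130.5 for complex V, 75.6 for complex II, 66.4 for complex I and 49.6 for the assembly factors. By span, the order of these medians was the same in the dIWS1 columns, with 123 and 133 for complex IV and 33.4 and 39.2 for the assembly factors. *COX8A* was highest, with 374 per kb in the control (exact 95% Poisson interval 348 to 402), 263 in column 1 and 258 in column 2. *CYCS* followed with 283 (270 to 296), and then *COX5B* with 255 (235 to 276), *COX4I1* with 239 (228 to 250), *UQCRQ* with 238 (219 to 260) and *COX6A1* with 229 (211 to 248). The intervals of the last 4 overlap, so their order is not resolved. The lowest was *SDHAF4*, with 13.6 per kb. The median over the 88 genes was 83.6 per kb, beside 41.2 for all genes tested, 72.5 for 73 mitochondrial ribosomal protein genes and 437 for 49 cytosolic ones. Per kb of exon the median of the members was 297, beside 220 for all genes tested, 216 for the mitochondrial ribosomal protein genes and 683 for the cytosolic ones. By exon the order of the complexes was another one, with complex II highest (661), then complex IV (545), complex III (313), complex V (268), complex I (245) and the assembly factors (212). Exon length was the union of all GENCODE exons of a gene, whereas span was from RefSeq, and the annotations differ. For *NDUFB9* (148 per kb of span, 96.8 per kb of exon) and *UQCRHL* (57.4 and 7.27) the exon length exceeded the span. A pulse of 4-thiouridine marks introns too, so the order of levels depends on the length used.

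**Figure D4:**
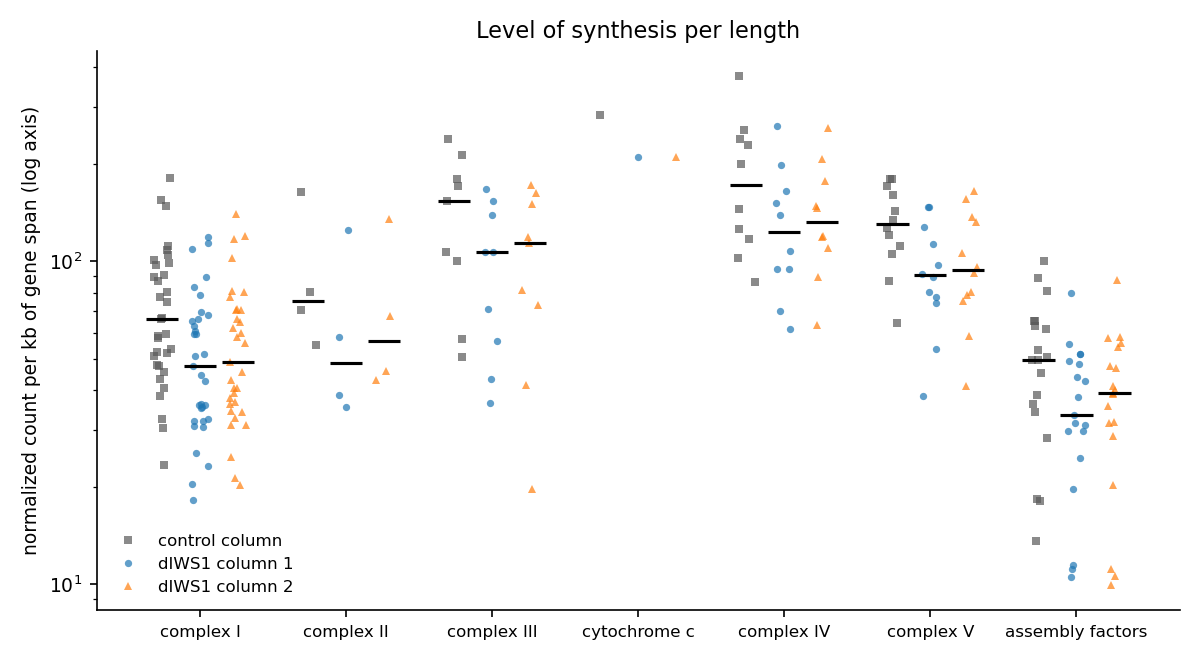
Normalized count per kb of gene span, on a log axis, for each of the 88 genes in the control column (squares), dIWS1 column 1 (circles) and dIWS1 column 2 (triangles). Bars are medians over the genes of a complex. By span, the medians of complexes III, IV and V lie above those of complex I and the assembly factors in each column, with control medians of 153, 172 and 130.5 against 66.4 and 49.6.

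Ribosomal protein genes, also mostly short, were set beside them. The mitochondrial ribosomal protein genes had a median of −0.43, and 50 of 73 fell. The cytosolic ribosomal protein genes had a median of −0.49, and 47 of 49 fell. The median of the oxidative phosphorylation genes, −0.44, lay between them.

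The members are shorter than most genes, with a median span of 11.8 kb beside 28.0 kb for all genes tested, while the GC content of their spans was the same (44.4% in both). Across the 88 genes the fold change was lower where the GC content was higher (Spearman's rho −0.54, Pearson's r −0.49), and each column gave this alone (rho −0.48 and −0.49). Across all 9007 protein coding genes tested rho was −0.36. In the 16 members with at most 40% GC the median was −0.24 and 6 fell, whereas in the 20 members above 50% GC it was −0.56 and 19 fell. Protein coding genes of the same classes had medians of −0.31 and −0.54, and 49.4% and 82.0% of them fell, a difference in the same direction. Between these classes lay 30 members of 40 to 45% GC (median −0.39, 23 fell) and 22 of 45 to 50% (median −0.49, 20 fell), where 58.2% and 74.2% of protein coding genes fell. The points share the same libraries, and members rich in GC were also shorter (rho −0.63 between span and GC). Against span, rho was 0.34 in the members and −0.04 in all protein coding genes. The 39 members up to 10 kb had a median of −0.49, the next 30 by class of length one of −0.39, the 16 of the class that ends at 65 kb one of −0.36 and the 3 longer ones −0.44. Protein coding genes of the same length classes had similar medians, −0.48, −0.39, −0.34 and −0.49. The longest class held 2323 of those 9007 genes but only 3 of the 88 members. The part of base composition, and of its effect on library preparation, was not tested.

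**Figure D5:**
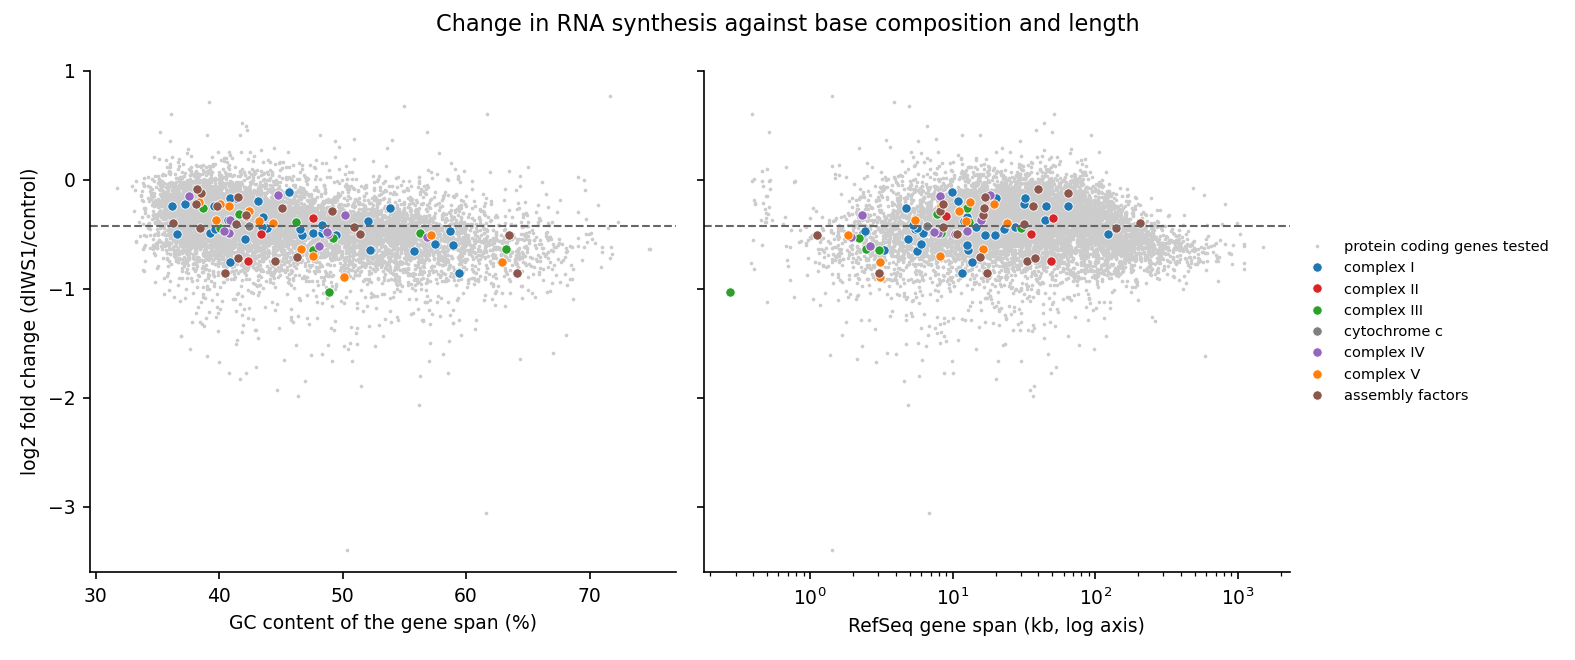
Log2 fold change (dIWS1/control) of the members (coloured by complex) and of 9007 protein coding genes (grey), against the GC content of the gene span in percent (left) and the gene span in kb on a log axis (right). The dashed line is the median of all genes tested. The members lie lower at higher GC, from a median of −0.24 up to 40% GC to −0.56 above 50%, and the point at the far left of the right panel is *UQCRHL*.

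Promoters were read from RefSeq (GRCh38.p14) as windows from 250 bases before to 50 after the annotated start, which were found for 75 of the 88 genes. The letters of the NRF1 core (GCATGCGC) stood on either strand in 24.0% of them (18 genes), beside 6.12% of all 8029 windows of listed genes. The ETS core (CCGGAAGT) stood in 16.0%, beside 10.3%. The YY1 core (AAGATGGC) stood in 14.7%, beside 6.33%. The GC box (GGGCGG) stood in 57.3%, beside 71.7%. Windows were also found for 66 mitochondrial and 44 cytosolic ribosomal protein genes. The NRF1 core stood in 9.09% and 2.27% of these, the ETS core in 15.2% and 18.2%, and the YY1 core in 28.8% and 9.09%. The GC box stood in 60.6% of the mitochondrial ones and in 22 of the 44 cytosolic ones. Only the NRF1 core was thus more frequent in the members than in both ribosomal sets. These differences were not tested. The NRF1 core and its reverse complement GCGCATGC share 6 letters, so that GCGCATGCGC counts on both strands. The members with the NRF1 core had a median log2 fold change of −0.43 and those without it −0.45. Of the 18 members 14 fell, near the 77.3% of all members. Among all 491 listed genes with the core in their window 342 fell. With the ETS core the median was −0.41 and with the YY1 core −0.42. These are matches of letters and not sites.

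The 250 bases before the start are shown for the 3 genes called lower than the median gene in the fit without centred columns. *ATP5G2*, which encodes the same mature protein as *ATP5G1*, is shown beside them. Capitals mark NRF1 and ETS cores on either strand. The windows are chr19:1383657-1383906 (plus strand), chr4:73069717-73069966 (minus strand), chr17:48892537-48892786 (plus strand) and chr12:53676084-53676333 (minus strand).
NDUFS7: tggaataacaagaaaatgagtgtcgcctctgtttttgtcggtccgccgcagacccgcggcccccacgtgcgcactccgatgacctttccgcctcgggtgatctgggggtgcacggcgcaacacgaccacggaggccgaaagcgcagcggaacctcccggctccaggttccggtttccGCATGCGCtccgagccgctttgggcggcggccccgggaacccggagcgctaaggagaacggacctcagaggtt
COX18: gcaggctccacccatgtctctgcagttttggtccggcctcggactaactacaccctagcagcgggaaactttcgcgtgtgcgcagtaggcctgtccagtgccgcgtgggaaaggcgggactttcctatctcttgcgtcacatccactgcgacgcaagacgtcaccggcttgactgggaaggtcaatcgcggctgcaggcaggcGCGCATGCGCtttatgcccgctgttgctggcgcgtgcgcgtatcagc
ATP5G1: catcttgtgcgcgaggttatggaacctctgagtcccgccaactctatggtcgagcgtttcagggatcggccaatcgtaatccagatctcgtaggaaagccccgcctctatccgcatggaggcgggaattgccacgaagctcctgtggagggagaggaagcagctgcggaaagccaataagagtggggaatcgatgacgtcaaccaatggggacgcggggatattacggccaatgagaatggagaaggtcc
ATP5G2: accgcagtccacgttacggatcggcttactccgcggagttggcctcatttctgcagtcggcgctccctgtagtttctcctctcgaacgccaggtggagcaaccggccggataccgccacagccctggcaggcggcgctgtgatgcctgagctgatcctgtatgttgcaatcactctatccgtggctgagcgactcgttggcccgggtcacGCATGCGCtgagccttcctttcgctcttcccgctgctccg
*NDUFS7*, *COX18* and *ATP5G2* each hold an NRF1 core, which starts 73, 45 and 40 bases before the start. Bases are counted from the start used for the window. For *COX18* that start lies inside the gene span given above, so part of its window overlaps the span. *ATP5G1* holds neither core in this window, and it had the lowest fold change of these genes.

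The next windows belong to genes that fell near or less than the median gene and hold the same letters. They are *CYCS* (chr7:25125261-25125510, minus strand), *SDHD* (chr11:112086623-112086872, plus strand) and *COX5B* (chr2:97645812-97646061, plus strand).
CYCS: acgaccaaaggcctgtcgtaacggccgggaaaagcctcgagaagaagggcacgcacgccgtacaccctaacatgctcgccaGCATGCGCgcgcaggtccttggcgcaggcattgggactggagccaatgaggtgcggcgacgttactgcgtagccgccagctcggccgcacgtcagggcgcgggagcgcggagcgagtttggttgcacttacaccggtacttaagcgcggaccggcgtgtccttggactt
SDHD: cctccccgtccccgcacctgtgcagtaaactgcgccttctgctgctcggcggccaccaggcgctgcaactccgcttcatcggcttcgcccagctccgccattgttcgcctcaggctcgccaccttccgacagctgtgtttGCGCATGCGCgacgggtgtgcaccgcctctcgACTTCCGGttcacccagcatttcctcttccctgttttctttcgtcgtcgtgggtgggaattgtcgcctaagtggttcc
COX5B: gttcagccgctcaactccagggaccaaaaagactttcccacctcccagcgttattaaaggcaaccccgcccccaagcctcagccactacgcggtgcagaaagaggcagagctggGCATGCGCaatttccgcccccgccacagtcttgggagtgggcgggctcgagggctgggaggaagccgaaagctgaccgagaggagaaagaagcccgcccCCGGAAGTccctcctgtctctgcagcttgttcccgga
*CYCS* holds an NRF1 core 169 bases before the start, at a fold change of −0.42. *SDHD* (−0.34) and *COX5B* (−0.33) hold both an NRF1 and an ETS core. The NRF1 core was thus present at fold changes from −0.86 in *COX18* to −0.33 in *COX5B* among the windows shown.

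Genes around the pathway were described from lists that hold none of the 88 genes, and their counts stand beside the 65.4% of all genes tested that fell. Of 8 regulators tested 7 fell (median −0.62), and against the median gene 0 were lower and 0 higher. Among those that fell, *NRF1* had 9637 reads in the control, 5945 in column 1 and 6194 in column 2 (−0.59). The others were *CREB1* (−0.84), *HCFC1* (−0.73), *GABPB2* (−0.73), *ESRRA* (−0.65), *SP1* (−0.45) and *PPRC1* (−0.39). *GABPA*, the DNA-binding part of GABP, was at −0.24 and not called. Of 11 genes for transcription and replication of mitochondrial DNA 4 fell (median −0.24), namely *POLRMT*, the mitochondrial RNA polymerase (−0.66), *MTERF4* (−0.61), *TFB1M* (−0.60) and *POLG2* (−0.36). *TFAM*, which packages mitochondrial DNA, was at −0.12 and not called.

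Of 34 further assembly factors and subunits 25 fell (median −0.42), with *SURF1*, a complex IV factor, at −0.80 and *TTC19*, a complex III factor, at −0.03 and not called. Of 13 tricarboxylic acid cycle genes 8 fell (median −0.34). *IDH3G*, a subunit of isocitrate dehydrogenase, was at −0.92 from 734 reads in the control, 355 in column 1 and 379 in column 2, and it was lower than the median gene (−0.50, adjusted p = 0.00497, limma). *FH*, fumarase, was at −0.03 and not called. Of 5 carriers and porins 3 fell (median −0.39), namely *SLC25A5*, *VDAC1* and *VDAC3*. No gene of these lists rose.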

How the data were processed

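The authors aligned TT-seq reads with STAR 2.6.0 to GRCh38 with spike-in sequences, kept unique alignments, counted read pairs per RefSeq gene with strand, removed overlapping genes, kept genes over a threshold on reads per kb and fitted DESeq2 with spike-in size factors. The deposited table holds 1 comparison. The signal that the authors deposited is 1 mean of normalized counts per gene, made from 4 library columns. The deposited log2 fold change served only to tell which columns stand on which side, and the direction is that of the study's legends. The deposited standard error, statistic, p-value and adjusted p-value were not used.

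Each mean is a sum of whole multiples of 3 steps, 1 per distinct column. Of 10136 means above 0, 9527 split in 1 way. Of 609 that split in several ways, 582 were kept where 1 split had dIWS1 columns within a ratio of 1.5, and 27 were left out. The recovery and the test were tested on simulated data. The plan named limma voom on the recovered reads as the main test. It was run in R 4.3.3 with limma 3.58.1, with 1 control column against 2 dIWS1 columns. The prior degrees of freedom were infinite, so all genes shared 1 trend of variance. An exact permutation test of 1 against 2 columns cannot go below p = 0.333 (one-sided). The study's methods call the replicates biological. Log2 ratios of a column used a pseudocount of 0.5.

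The members and all lists were chosen with earlier results of these data known. Named genes were all of complex II, the 3 lowest and 2 highest of each other group with at least 100 control reads, every member called higher or apart from the median gene, the 3 longest, the 3 shortest, the 3 with the highest level per kb, and listed paralogs. Examples outside this rule were chosen after their values were seen. Genes were matched to RefSeq (GRCh38.p14), 9353 by symbol, 581 by synonym and 169 by gene number. Scripts ran in Python 3.11.15 (numpy 2.4.6, scipy 1.17.1, pandas 2.3.3, matplotlib 3.10.9). The alternatives tried were another limma variant, other minimum means, thresholds, scalings, pseudocounts and lengths, and columns left out.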

Additional observations from a re-analysis of the deposited data

How the results depend on the processing

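With 1 control column the spread between controls is unknown, and the fall of the members rests on the spike-in scaling. Leaving out a dIWS1 column leaves 1 column against 1 and gives values with no test. No paired analysis was possible because the recovered columns carry no replicate numbers.

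Of the 88 members 68 fell and 0 rose. Scaled by total reads in genes, 9 were lower and 15 higher, with a minimum change of 0.5 the number that fell was 30, and recentred on the median gene it was 3. Over all genes 6470 fell and 10 rose. Entering the control 2 times gave 46 that rose, an adjusted p under 0.01 gave 6, one under 0.1 gave 18, and a minimum change of 0.5 gave 3722 and 3. Scaling by total reads gave 1471 lower and 1878 higher, and recentring gave 483 and 292. Other settings stayed within 1.5 times the counts. Against the median gene 3 members were lower. limma-trend gave 1, the control entered 2 times 13 lower and 4 higher, the centred columns 11 and 12, and an adjusted p under 0.01 or a minimum change of 0.5 gave 0.

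The median log2 fold change became −0.0079 for the members under total reads, −0.017 for complex I, 0.0085 for complex II, −0.054 for complex III, −0.038 for complex IV, 0.045 for complex V and 0.025 for the assembly factors. Recentred, the same order gave −0.021, −0.032, −0.0042, −0.067, −0.051, 0.032 and 0.012. In each column alone the medians were −0.50 and −0.37 for the members, −0.48 and −0.39 for complex I, −0.55 and −0.32 for complex II, −0.52 and −0.39 for complex III, −0.51 and −0.41 for complex IV, −0.45 and −0.34 for complex V, and −0.42 and −0.34 for the assembly factors. The level per kb of the members was 83.6 by span and 297 by exon.

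Of 41 named members, 16 changed sign under total reads and 15 when recentred, by the construction of those settings. Under total reads they were *ATP5C1* 0.21, *ATP5F1* 0.23, *ATP5G3* 0.063, *COX5A* 0.30, *COX5B* 0.11, *CYCS* 0.013, *NDUFA12* 0.27, *NDUFA4* 0.29, *NDUFAF2* 0.042, *NDUFAF7* 0.35, *NDUFB2* 0.32, *SDHA* 0.080, *SDHAF3* 0.31, *SDHD* 0.10, *UQCRB* 0.18 and *UQCRFS1* 0.12. Recentred they were *ATP5C1* 0.20, *ATP5F1* 0.22, *ATP5G3* 0.050, *COX5A* 0.28, *COX5B* 0.10, *NDUFA12* 0.26, *NDUFA4* 0.27, *NDUFAF2* 0.029, *NDUFAF7* 0.34, *NDUFB2* 0.31, *SDHA* 0.067, *SDHAF3* 0.30, *SDHD* 0.088, *UQCRB* 0.16 and *UQCRFS1* 0.11. Without column 1, *COX5A* was 0.022 and *NDUFAF7* 0.027, and without column 2 they were −0.30 and −0.20. Under limma-trend 6 members lost their call (*NDUFAF2*, *SDHA*, *SDHAF1*, *SDHD*, *UQCRFS1* and *UQCRHL*), and with the control entered 2 times *UQCRB* gained one. The cause was not tested.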

Other observations

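Many members share a start region with another gene. Of 75 members with a RefSeq start, 31 had a gene on the other strand that starts within 1000 bp (41.3%, beside 28.5% of 7592 protein coding genes of the table). In 19 of these pairs both genes were tested, with starts a median of 151 bp apart. Of the 19 partners 15 fell, where 65.4% of all genes tested did. Member and partner differed by at most 0.1 on the log2 scale in 11 pairs, with a median difference of 0.09. *ATP5A1* (−0.40) and *HAUS1* (−0.41), *SDHA* (−0.36) and *CCDC127* (−0.37), and *NDUFAF7* (−0.09) and *CEBPZ* (−0.12) were close. In 3 pairs the genes differed by over 0.4. *ATP5H* was at −0.70 and its partner *KCTD2* at −0.21, from 641 reads in the control, 496 in column 1 and 553 in column 2. *NDUFB1* was at −0.44 and *CPSF2* at −0.89, from 4078, 2165 and 2014 reads. *ATP5I* was at −0.51 and *MYL5* at −1.01, from 98, 44 and 48 reads. The differences within pairs were not tested.

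The 2 hyphenated names were not called. *NDUFA6-AS1*, antisense to *NDUFA6*, had 205 reads in the control, 194 in column 1 and 182 in column 2 (−0.05, adjusted p = 0.788, limma), and *NDUFB2-AS1* had 21, 18 and 24 (0.06, adjusted p = 0.877, limma).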
